A study of Mus musculus with 30 samples.

Results

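The chemokine ligands are the 34 genes on the array whose symbols follow the pattern of the CC, CXC, XC and CX3C ligand names (Ccl, Cxcl, Xcl or Cx3cl and a number) and that had a probe row with a single gene symbol. They are 34 of 19938 genes measured in EL4 tumours. EL4 is a line of T lymphoma cells from the mouse. The 34 had 39 rows, and Ccl19 (5 rows) and Ccl25 (2 rows) are represented by their brightest row on average. The Ccl21 and Ccl27 genes, on 4 and 3 rows with several symbols, were not analysed here, and the platelet chemokines Pf4 and Ppbp have other kinds of name.

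The tumours formed 6 groups, with 5 arrays in each: ABX and H2O tumours at 0 h, at 6 h and at 18 h after oxaliplatin. ABX tumours came from mice given an antibiotic cocktail, whose agents are not named in the sources used here, for 3 weeks before EL4 cells were placed under the skin of the flank. H2O tumours (water in the plots) came from mice without it. All mice, those of the 0 h groups included, are labelled as given 10 mg per kg of oxaliplatin, a platinum drug that damages DNA, into the abdomen 7 days after the tumour cells. There are no tumours without the drug at 6 or 18 h, so an effect of oxaliplatin and any other change with time cannot be told apart. The sample titles carry WT, and age, sex and strain are not given in the sources used here. Whether the arrays of a group came from different tumours or different mice is not stated in the labels. Single values given below for tumours are values of single arrays. The p-values rest on the spread among these arrays, which may be technical. Sample numbers run in blocks by group, so handling order and group cannot be told apart.

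Chemokines are small secreted proteins that steer leukocytes through receptors on the cell surface. Inflammatory chemokines are induced by cytokines, NF-kB and interferons and draw monocytes, neutrophils and activated T cells, while homeostatic ones position cells in resting tissue. Tumours hold macrophages, stromal cells and lymphocytes that make and receive these signals, and atypical receptors bind chemokines without moving the cell.

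Values are log2 expression as deposited, and only the same ligand is compared between groups. A gene was called when its adjusted p was under 0.05 in limma (one fit over all 30 arrays, Benjamini-Hochberg over all 19938 genes). The residual SD of a gene had a median of 0.115. The spread was uneven: over the ligands the median SD was 0.235 in ABX tumours at 6 h and 0.154 in H2O tumours at 6 h, and the shared error understates the first. Markers fixed for EL4 and T cells were high on every array, with Thy1 between 11.74 and 12.24 and Cd3e between 11.12 and 11.52, against a median of 7.52 over all genes. Cd8a, at 6.12 to 6.89, lay below that median. A few arrays stood apart by markers of neighbouring tissue. The keratinocyte list mean, relative to its mean over the 30 arrays, was 1.95 on ABX 6 h array 1 and 2.02 on H2O 6 h array 1, while that of skeletal muscle reached 1.55 on ABX 6 h array 5. Counts without these 3 arrays are given where they differ. ABX 18 h array 1 had the lowest list mean of its group for macrophages (-0.37), fibroblasts (-0.39), endothelium (-0.30), NK and cytotoxic cells (-0.29), skeletal muscle (-0.78) and interferon response genes (-0.59), and the highest for keratinocytes (0.47), while its T cell mean (-0.01) lay within the range of the others.

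Monocyte and macrophage chemokines were lower in ABX tumours than in H2O tumours. Averaged over the 3 times, 8 of 34 ligands were called and all 8 were lower in ABX tumours: Ccl2, Ccl7, Ccl12 and Ccl8, Ccl9 and Ccl6, Cxcl16 and Ccl22. Among all genes 6.65% were called in this comparison and 4.07% were called lower, against 23.5% of the ligands. The differences were small, from -0.20 to -0.39 on the log2 scale, so none reached 1.5-fold. Of the 34 differences 26 were below 0, with a median of -0.10 (0.0042 over all genes, of which 47% were below 0). With array medians subtracted 5 remained called, without Ccl8, Ccl12 and Ccl22. The count was 4 without ABX 18 h array 1, H2O 0 h array 5 or H2O 6 h array 5, 5 without ABX 0 h array 2 or 5, ABX 6 h array 2 or H2O 18 h array 5, and 10 without ABX 6 h array 5 or without the 3 arrays that stand apart.

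At single times the calls were fewer. At 18 h 4 ligands were called, all lower in ABX tumours (11.8%, against 7.85% of all genes, 3.34% lower). At 6 h Cxcl16 alone was called, 2.94% of the ligands against 3.77% of all genes (2.64% lower). At 0 h limma called no ligand and 18 genes (0.0903%), while 4 ligands and 1317 genes had an unadjusted p under 0.05. Differences below 0 numbered 24 of 34 at 0 h, 24 at 6 h and 28 at 18 h, against 53.2%, 46.1% and 52.5% of all genes. The 18 h count was 1 without ABX 18 h array 1 or 4, and 2 without ABX 18 h array 3 or H2O 18 h array 1, 3 or 4. The part of the low marker means of ABX 18 h array 1 in these counts was not tested. The differences of all ligands, and their changes from 0 to 18 h, are plotted by family.

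**Figure D1:**
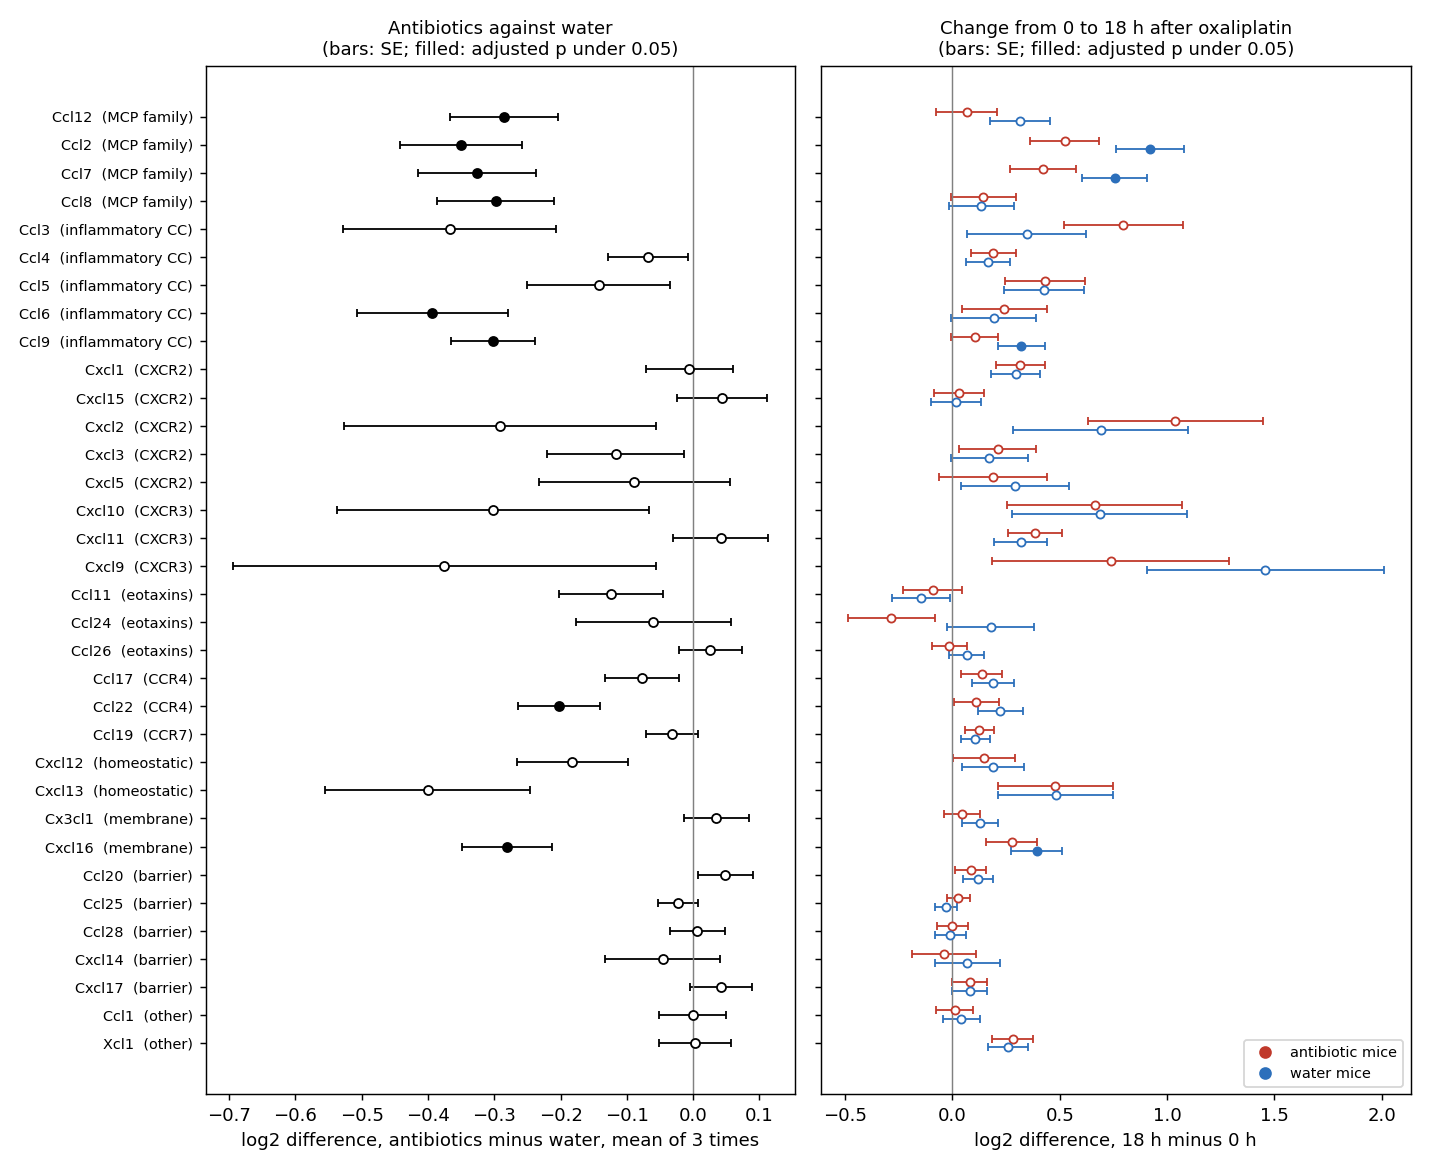
The 34 ligands by family. Left, the log2 difference of ABX minus H2O tumours averaged over 3 times (points) with its SE (bars). Right, the log2 difference of 18 h minus 0 h in ABX (red) and H2O (blue) tumours with its SE. Filled points had an adjusted p under 0.05. The 8 filled points on the left lie between -0.20 and -0.39, and the 4 filled points on the right (Ccl2, Ccl7, Ccl9, Cxcl16) are all in H2O tumours.

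Ccl2, Ccl7, Ccl8 and Ccl12 form the monocyte chemoattractant protein family, which draws monocytes out of bone marrow and blood into tissue, mostly through the receptor CCR2. All 4 were called lower in ABX tumours averaged over the times, and 3 of the 4 (not Ccl8) at 18 h. Ccl2 is the best known member. At 0 h Ccl2 measured 9.78, 9.16, 8.88, 9.31 and 8.90 on the 5 ABX arrays and 9.08, 9.25, 9.61, 9.32 and 9.78 on the 5 H2O arrays. At 6 h Ccl2 measured 9.51, 9.39, 9.35, 9.55 and 9.90 in ABX tumours and 9.77, 9.80, 9.59, 9.60 and 10.15 in H2O tumours. At 18 h it measured 9.30, 9.96, 9.85, 9.55 and 9.98 in ABX tumours and 10.33, 10.13, 10.18, 10.55 and 10.46 in H2O tumours. The groups overlapped at 0 and 6 h, and at 18 h every ABX value lay below every H2O value, as it did for Ccl7, Ccl12, Ccl9 and Ccl6 (5 of 34 ligands, where 7.2% of all genes did not overlap in either direction). The means at 18 h were 9.73 ± 0.29 and 10.33 ± 0.18 (SD, n = 5 each), a log2 difference of -0.60 ± 0.16 (SE), or 0.659 times the H2O level (limma adjusted p = 0.0178). The exact two-sided permutation test of the 18 h groups gave p = 0.00794, the smallest that 252 arrangements can give. Groups of 5 without overlap always give this value, and such tests were made only on ligands already called. Averaged over the times Ccl2 differed by -0.35 ± 0.092 (limma adjusted p = 0.0184).

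Ccl7, a close relative of Ccl2 that also attracts monocytes, measured 9.50, 10.04, 9.81, 9.89 and 9.96 in ABX tumours at 18 h and 10.34, 10.09, 10.39, 10.65 and 10.39 in H2O tumours at 18 h. The 18 h groups did not overlap, although ABX array 2 and H2O array 2 nearly met. At 0 h Ccl7 measured 9.94, 9.37, 8.98, 9.59 and 9.20 in ABX tumours and 9.45, 9.33, 9.60, 9.73 and 9.98 in H2O tumours. At 6 h Ccl7 measured 9.69, 9.47, 9.66, 9.60 and 10.21 in ABX tumours and 9.95, 9.92, 9.96, 9.76 and 10.26 in H2O tumours. Both earlier pairs of groups overlapped. The log2 difference was -0.53 ± 0.15 (SE) at 18 h (limma adjusted p = 0.0291, exact permutation p = 0.00794) and -0.33 ± 0.088 averaged (adjusted p = 0.0225).

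Ccl12, known as MCP-5 in the mouse, measured 6.48, 6.91, 6.68, 6.89 and 6.92 in ABX tumours at 18 h and 7.01, 7.08, 7.02, 7.82 and 7.18 in H2O tumours at 18 h. The groups did not overlap, and H2O array 4 lay well above the other H2O arrays. At 0 h Ccl12 measured 6.81, 6.50, 6.63, 6.97 and 6.65 in ABX tumours and 6.95, 6.55, 6.83, 6.98 and 7.23 in H2O tumours. At 6 h Ccl12 measured 6.87, 6.95, 6.65, 6.76 and 7.30 in ABX tumours and 7.19, 6.98, 7.23, 6.90 and 7.28 in H2O tumours, and the groups overlapped at both times. The 18 h difference of -0.45 ± 0.14 (SE) sat at the threshold (limma adjusted p = 0.0480, exact permutation p = 0.00794) and lost its call when any of 23 of the 30 arrays was left out. The averaged difference of -0.29 ± 0.081 (adjusted p = 0.0306) kept its call in 24 of those 30 fits.

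Ccl8 attracts monocytes and, in the mouse, activates the receptor CCR8 on T helper cells. It measured 10.33, 10.51, 10.06, 10.40 and 9.87 in ABX tumours at 0 h and 10.66, 10.46, 10.43, 10.55 and 10.91 in H2O tumours at 0 h. At 6 h Ccl8 measured 10.48, 9.86, 10.57, 10.50 and 10.74 in ABX tumours and 10.69, 10.30, 10.71, 10.36 and 10.90 in H2O tumours. At 18 h it measured 10.34, 10.66, 10.22, 10.61 and 10.06 in ABX tumours and 10.66, 10.64, 10.54, 11.08 and 10.78 in H2O tumours. The groups overlapped at every time. The difference was -0.37 at 0 h, -0.17 at 6 h and -0.36 at 18 h, each with an SE of 0.15, and only their average of -0.30 ± 0.088 was called (limma adjusted p = 0.0381), a call kept in 17 of the 30 fits that each left out an array.

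**Figure D2:**
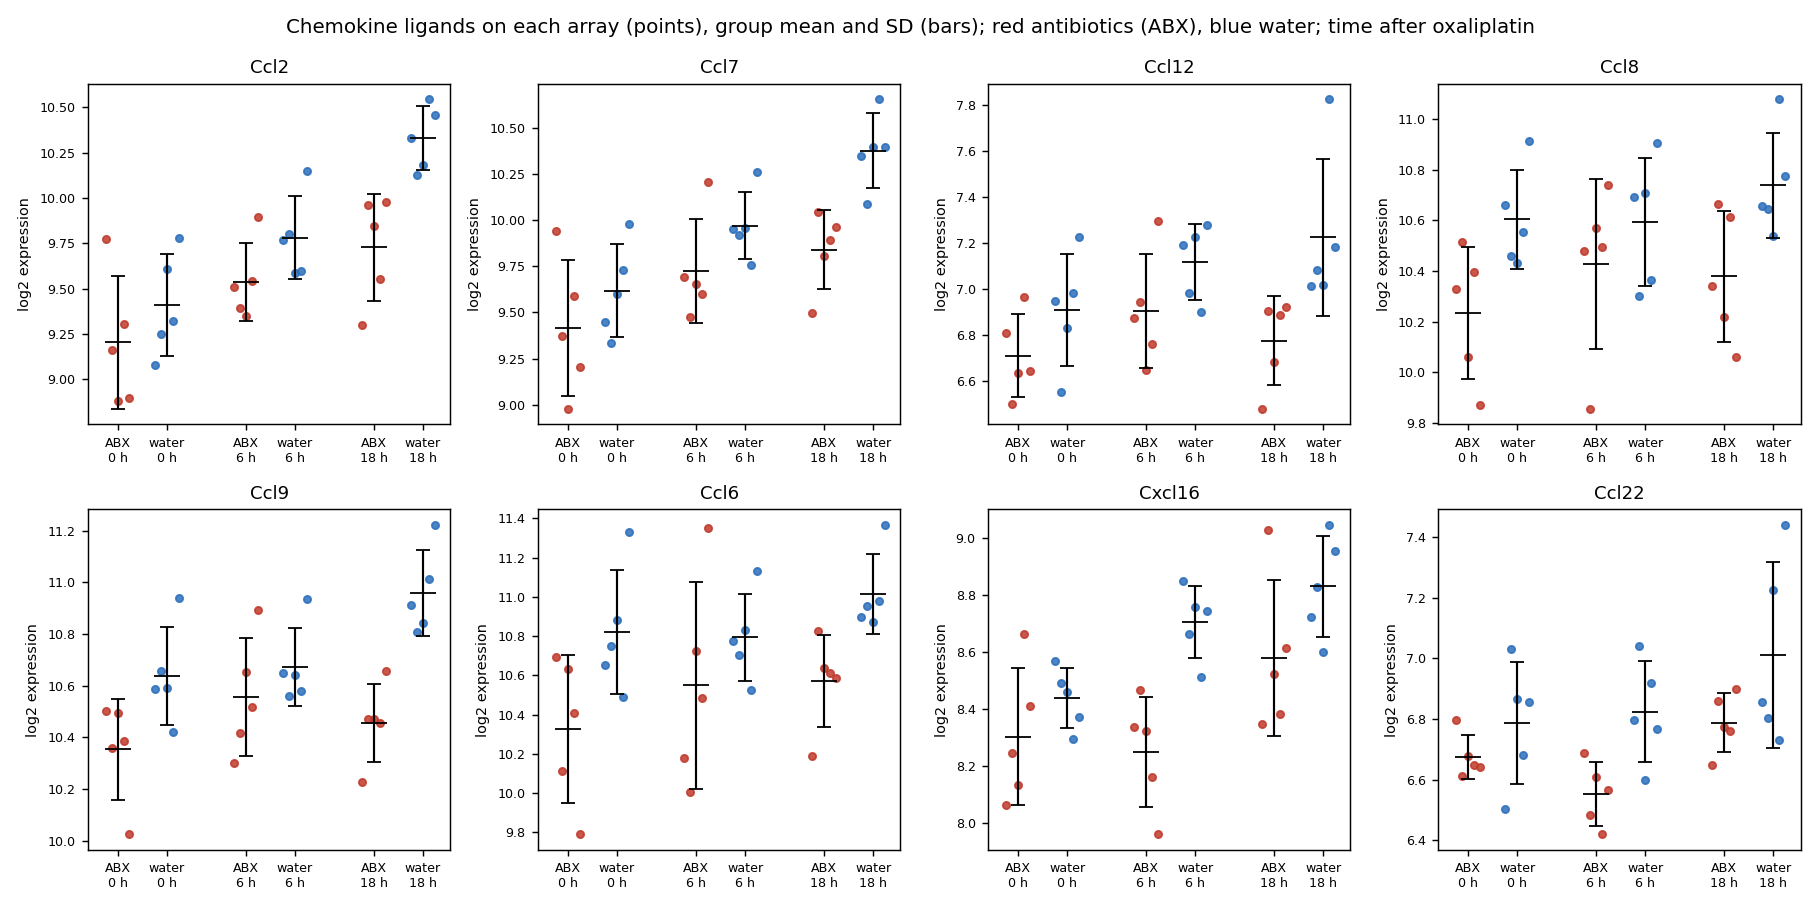
The 8 ligands called in any comparison, one panel each, with log2 expression on the vertical axis and the 6 groups on the horizontal axis. Points are arrays, and bars are the group mean and SD (n = 5). In the Ccl2, Ccl7 and Ccl9 panels all 5 ABX points at 18 h lie below all 5 H2O points at 18 h.

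The 4 monocyte chemoattractant genes neighbour each other on mouse chromosome 11, in the order Ccl2, Ccl7, Ccl11, Ccl12, Ccl8, Ccl1, as the RefSeq gene table of GRCm38 has them. All 6 averaged differences in this run were below 0, and the 4 called were these 4. A second run on the same chromosome holds Ccl5, Ccl9, Ccl6, Ccl3 and Ccl4, where all 5 were below 0 and Ccl9 and Ccl6 were called. In the run of Cxcl5, Cxcl3, Cxcl15, Cxcl1 and Cxcl2 on chromosome 5, 4 of the 5 were below 0 and none was called. Promoter sequences are shown for the called ligands of the runs on chromosome 11 that had a RefSeq promoter. They are the 250 bases before the RefSeq start of transcription, 5′ to 3′ on the gene's strand. Those of the first run are Ccl12 at chr11:82101595-82101844 on the plus strand and Ccl8 at chr11:82114935-82115184 on the plus strand (GRCm38.p6).
Ccl12: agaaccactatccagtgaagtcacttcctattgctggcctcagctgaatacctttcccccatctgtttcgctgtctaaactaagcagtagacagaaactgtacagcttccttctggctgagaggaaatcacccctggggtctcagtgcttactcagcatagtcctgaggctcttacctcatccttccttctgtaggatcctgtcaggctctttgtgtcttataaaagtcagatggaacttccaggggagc
Ccl8: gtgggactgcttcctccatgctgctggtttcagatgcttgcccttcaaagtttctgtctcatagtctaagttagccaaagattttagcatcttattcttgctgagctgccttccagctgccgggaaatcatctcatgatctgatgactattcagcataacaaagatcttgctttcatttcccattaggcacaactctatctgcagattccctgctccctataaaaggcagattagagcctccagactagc
These windows were searched on both strands for an NF-kB motif (GGGA and TTCC with 2 bases of any kind between them), an interferon-stimulated response element (GAAA and GAAA with 2 bases between them) and a gamma-activated site (TTC and GAA with 3 bases between them). The letters of none of the 3 occurred in either window. RefSeq promoters matched 23 of the 34 ligands, in 24 windows, and Ccl2 and Ccl7 were not among the 23.

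Ccl9 and Ccl6 are CC chemokines of the mouse made by macrophages and other myeloid cells, and both act on CCR1. Ccl9 had the smallest adjusted p of the ligands in the averaged comparison and at 18 h. It measured 10.23, 10.47, 10.47, 10.45 and 10.66 in ABX tumours at 18 h and 10.91, 10.81, 10.84, 11.01 and 11.22 in H2O tumours at 18 h. The groups were apart, with the highest ABX value below the lowest H2O value. At 0 h Ccl9 measured 10.50, 10.36, 10.49, 10.38 and 10.02 in ABX tumours and 10.59, 10.65, 10.59, 10.42 and 10.94 in H2O tumours. At 6 h Ccl9 measured 10.30, 10.42, 10.65, 10.52 and 10.89 in ABX tumours and 10.65, 10.56, 10.64, 10.58 and 10.93 in H2O tumours. These groups overlapped. The difference was -0.50 ± 0.11 (SE) at 18 h (limma adjusted p = 0.00513, exact permutation p = 0.00794) and -0.30 ± 0.063 averaged (adjusted p = 0.00315). Both calls held with each of the 30 arrays left out in turn.

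Ccl6 measured 10.19, 10.83, 10.64, 10.61 and 10.59 in ABX tumours at 18 h and 10.90, 10.95, 10.87, 10.98 and 11.37 in H2O tumours at 18 h. These groups did not overlap, but the difference of -0.44 ± 0.20 was not called (limma adjusted p = 0.19). At 0 h Ccl6 measured 10.70, 10.11, 10.63, 10.41 and 9.79 in ABX tumours and 10.65, 10.75, 10.88, 10.49 and 11.33 in H2O tumours. At 6 h Ccl6 measured 10.18, 10.00, 10.73, 10.49 and 11.35 in ABX tumours and 10.77, 10.71, 10.83, 10.52 and 11.13 in H2O tumours. The highest value at 6 h was thus on an ABX array, the one with high muscle markers. Averaged over the times Ccl6 was lower by -0.39 ± 0.11 (adjusted p = 0.0342), a call lost when any of 9 of the 30 arrays was left out. The promoters of this adjacent pair lie at chr11:83578637-83578886 (Ccl9) and chr11:83593088-83593337 (Ccl6), both on the minus strand.
Ccl9: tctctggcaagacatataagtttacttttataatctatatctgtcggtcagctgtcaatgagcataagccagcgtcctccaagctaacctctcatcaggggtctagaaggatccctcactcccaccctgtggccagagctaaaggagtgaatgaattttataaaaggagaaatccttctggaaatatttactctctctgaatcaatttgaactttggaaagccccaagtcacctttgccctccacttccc
Ccl6: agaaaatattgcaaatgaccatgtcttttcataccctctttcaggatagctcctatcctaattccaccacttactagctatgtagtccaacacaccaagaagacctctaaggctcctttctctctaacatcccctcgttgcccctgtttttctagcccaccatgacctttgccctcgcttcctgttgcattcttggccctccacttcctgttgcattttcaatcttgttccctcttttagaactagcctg
Again the letters of none of the 3 motifs occurred. The other members of this family, Ccl3, Ccl4 and Ccl5, which draw macrophages and effector T cells, were not called in any comparison over all 30 arrays. In ABX tumours without 18 h array 1, Ccl3 was called between 18 and 0 h (limma adjusted p = 0.0255). Ccl5 was called there between 18 and 6 h (adjusted p = 0.0364). Without ABX 18 h array 2, Ccl5 was called between 18 and 0 h in H2O tumours (adjusted p = 0.0462). Ccl3 had averaged differences of -0.37 ± 0.16, Ccl4 of -0.07 ± 0.060 and Ccl5 of -0.14 ± 0.11.

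Cxcl16 is a chemokine anchored in the cell membrane that binds CXCR6 on T and NKT cells. At 6 h Cxcl16 measured 8.34, 8.47, 8.32, 8.16 and 7.96 in ABX tumours and 8.85, 8.66, 8.76, 8.51 and 8.75 in H2O tumours. All ABX values lay below all H2O values, as for no other ligand at 6 h (4.95% of all genes did not overlap in either direction), and ABX array 2 came close to H2O array 4. The difference was -0.46 ± 0.12 (SE; limma adjusted p = 0.0275, exact permutation p = 0.00794). Without the 3 arrays with high skin or muscle markers it was -0.35, with an adjusted p of 0.12, and the call was also lost without H2O 6 h array 1, 3 or 5 or ABX 6 h array 3 or 4. At 0 h Cxcl16 measured 8.06, 8.25, 8.13, 8.66 and 8.41 in ABX tumours and 8.57, 8.49, 8.46, 8.29 and 8.37 in H2O tumours. At 18 h it measured 8.35, 9.03, 8.52, 8.38 and 8.61 in ABX tumours and 8.72, 8.83, 8.60, 9.05 and 8.95 in H2O tumours, with ABX array 2 among the highest. Averaged over the times it was lower by -0.28 ± 0.068 (adjusted p = 0.0101), a call that held with each array left out. The other membrane-bound chemokine, Cx3cl1, had an averaged difference of 0.04 ± 0.049.

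Ccl22, made by macrophages and dendritic cells, binds CCR4 on regulatory and helper T cells. At 0 h Ccl22 measured 6.80, 6.61, 6.68, 6.65 and 6.64 in ABX tumours and 6.50, 7.03, 6.87, 6.68 and 6.86 in H2O tumours. At 6 h Ccl22 measured 6.69, 6.48, 6.61, 6.42 and 6.57 in ABX tumours and 6.80, 7.04, 6.60, 6.92 and 6.77 in H2O tumours. At 18 h it measured 6.65, 6.86, 6.77, 6.76 and 6.90 in ABX tumours and 6.86, 6.80, 7.23, 6.73 and 7.44 in H2O tumours. The groups overlapped throughout, and the averaged difference of -0.20 ± 0.062 (limma adjusted p = 0.0447) lost its call when any of 19 of the 30 arrays was left out. Ccl17, the other CCR4 ligand, differed by -0.08 ± 0.056. Between 18 and 6 h in H2O tumours Ccl17 was called with array weights (0.29 ± 0.089, limma adjusted p = 0.0277) but not in the main fit.

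With 8 tests of averaged differences, exact permutation of the ABX and H2O labels within each time (16003008 arrangements, two-sided) gave p-values between 0.000214 for Ccl9 and 0.00293 for Ccl22. These tests were made only on ligands already called.

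Markers of macrophages and of several other cell types were also mostly below 0 in ABX minus H2O tumours. All 10 macrophage markers (Adgre1, Cd68, Csf1r, Cd14, Itgam, Mertk, Lyz2, Mpeg1, Cd163, Mrc1) had averaged ABX minus H2O differences below 0, with a median of -0.22, where 47% of all genes were below 0. Of the 10, Cd68 (-0.39 ± 0.059), Mertk (-0.35 ± 0.092) and Mpeg1 (-0.35 ± 0.11) were called lower, as were 4.07% of all genes, and 7 did not pass. None of the 10 was near the bottom of the scale: the lowest value on any array was 6.87, for Mertk. The mean of the list, relative to the 30 arrays, ranged from -0.40 to 0.16 in ABX tumours and from -0.07 to 0.37 in H2O tumours at 0 h. At 6 h it ranged from -0.39 to 0.17 in ABX tumours and from -0.15 to 0.16 in H2O tumours. At 18 h the ranges were -0.37 to 0.09 in ABX tumours and 0.08 to 0.50 in H2O tumours. The 18 h ranges met at their ends and the earlier ones overlapped widely. Of the stromal lists, fibroblast markers were below 0 in 7 of 8 averaged, and in 2 of 8 at 0 h, 7 of 8 at 6 h and 8 of 8 at 18 h (median -0.22 at 18 h). Endothelial markers were below 0 in 5 of 6 averaged, and in 1 of 6 at 0 h, 6 of 6 at 6 h and 5 of 6 at 18 h. No stromal marker passed limma's threshold in these comparisons. Averaged differences were below 0 for 5 of 7 T cell markers, 3 of 3 B cell, 6 of 7 mast cell and eosinophil, 3 of 4 platelet, 5 of 6 NK and cytotoxic cell, 7 of 11 neutrophil and 5 of 7 dendritic cell markers, and for 2 of 7 keratinocyte and 3 of 6 skeletal muscle markers. Those called lower averaged were the T cell markers Cd4 (-0.26 ± 0.055), Cd5 (-0.14 ± 0.028) and Cd3e (-0.09 ± 0.027), the B cell marker Cd79b (-0.16 ± 0.041), the mast cell marker Fcer1a (-0.21 ± 0.058) and the platelet chemokine Pf4 (-0.45 ± 0.10). The T cell marker Cd3d was called higher in ABX tumours at 6 h (0.20 ± 0.050) and lower at 18 h (-0.19 ± 0.050). The part of these markers in the ligand differences was not tested, and in bulk tumours fewer cells of a type and less RNA per cell cannot be told apart.

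Within groups the correlations of the called ligands with the macrophage markers ran from r = 0.110 (Cxcl16) to r = 0.837 (Ccl6). Each array's deviation from its group mean was compared between a ligand and the macrophage list (n = 30 arrays, permutations within groups, 68 relations with Benjamini-Hochberg adjustment). Ccl6 had Pearson r = 0.837 (permutation p = 1e-05, adjusted 0.000227) and Spearman rho = 0.809 (p = 2e-05), and r = 0.765 without the 2 arrays farthest from the median of the marker mean. Ccl2 had r = 0.781 (permutation p = 5e-05, adjusted 0.00034) and rho = 0.711 (p = 7e-05), and r = 0.733 without the 2 arrays. Cxcl16, in contrast in its values, had r = 0.110 (permutation p = 0.615, adjusted 0.653) and rho = 0.148 (p = 0.482), and r = 0.332 without them. Ccl22 had r = 0.247 (permutation p = 0.203, adjusted 0.246) and rho = 0.256 (p = 0.202), and r = 0.254 without them. The other called ligands were Ccl7 (r = 0.796), Ccl9 (r = 0.763), Ccl8 (r = 0.661) and Ccl12 (r = 0.660). Each of these had an adjusted permutation p under 0.05. In all, 18 of 34 ligands were positively related to the list at an adjusted p under 0.05 and Ccl25 negatively (r = -0.549, adjusted permutation p = 0.0153). The share over all genes was not computed, so this count is not shown to be particular to the ligands. The positive relations included ligands that were not called, such as Ccl11 (r = 0.804) and Cxcl5 (r = 0.757). Nor were they particular to this list. Against the mean of the NK and cytotoxic cell markers Ccl2 had r = 0.663, Ccl6 r = 0.644, Cxcl16 r = 0.383 and Ccl22 r = 0.0905. Arrays share their RNA quality and labelling across all genes, which such correlations include. Whether the correlations of Ccl6 and Cxcl16 differ was not tested.

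**Figure D3:**
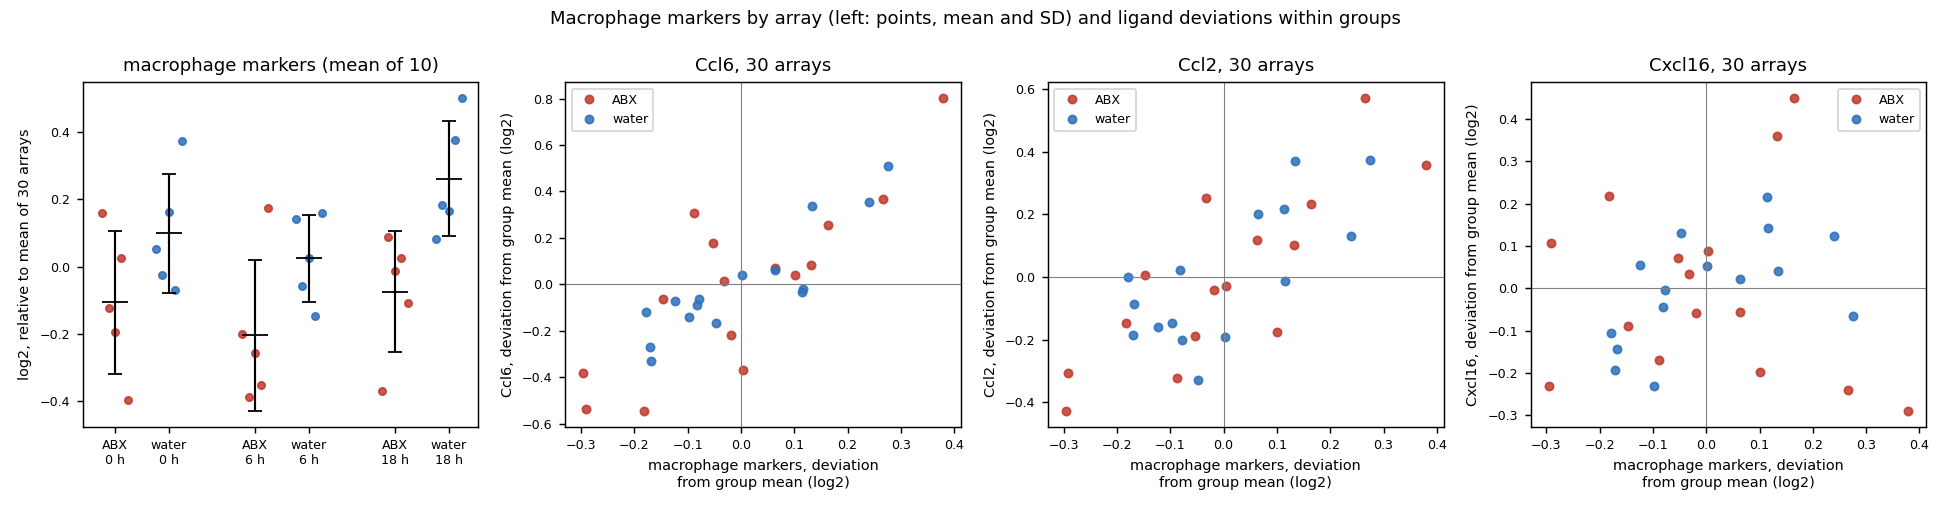
Left, the mean of 10 macrophage markers on each array (points), relative to its mean over 30 arrays in log2 units, with group mean and SD (n = 5). Right, deviations from the group mean of Ccl6, Ccl2 and Cxcl16 (vertical) against those of the marker mean (horizontal) on 30 arrays, ABX in red and H2O in blue. The points rise together for Ccl6 (r = 0.837) and Ccl2 (r = 0.781) and scatter for Cxcl16 (r = 0.110).

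The ligands were next compared between times within ABX and within H2O tumours. In ABX tumours limma called no ligand between 18 and 0 h (244 genes, 1.22%), between 18 and 6 h (422 genes, 2.12%) or between 6 and 0 h (0 genes, 0%). Unadjusted p-values under 0.05 were held by 9, 4 and 2 ligands and by 2223, 3196 and 2011 genes. The 18 h minus 0 h differences were above 0 for 29 of 34 ligands, with a median of 0.15. Ccl2 differed by 0.52 ± 0.16, Ccl7 by 0.42 ± 0.15, Cxcl16 by 0.28 ± 0.12 and Ccl9 by 0.10 ± 0.11. Without ABX 0 h array 1 Ccl2 was called between 18 and 0 h. Without ABX 18 h array 1 the ABX tumours gained 3 calls between 18 and 0 h: Ccl2 (0.63 ± 0.16, limma adjusted p = 0.0386), Ccl3 (1.07 ± 0.25, adjusted p = 0.0255) and Cxcl1 (0.42 ± 0.11, adjusted p = 0.0375). That array also held the lowest values of its group for Ccl2, Ccl7, Ccl12, Ccl9 and Ccl6.

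In H2O tumours the monocyte attractants Ccl2 and Ccl7 rose from 0 to 18 h, with Cxcl16 and Ccl9. Ccl2 was at 10.33 ± 0.18 at 18 h and 9.41 ± 0.28 at 0 h (SD, n = 5 each), a log2 difference of 0.92 ± 0.16 (SE), or 1.89-fold (limma adjusted p = 0.000191). Ccl7 rose by 0.76 ± 0.15 (adjusted p = 0.00102), Cxcl16 by 0.39 ± 0.12 (adjusted p = 0.0230) and Ccl9 by 0.32 ± 0.11 (adjusted p = 0.0487). These 4 are 11.8% of the ligands, all higher, against 14.1% of all genes called and 6.18% called higher. For Ccl2, Ccl7 and Cxcl16 all 5 values at 18 h lay above all 5 at 0 h (exact permutation p = 0.00794 each), which 11.2% of all genes do in either direction. For Ccl9 the groups overlapped (exact permutation p = 0.0317). The Ccl2 and Ccl7 calls held under all 9 other settings and with each array left out, while that of Ccl9 was lost in 5 of the 9 and in 20 of the 30. The count was 2 without H2O 0 h array 4 or H2O 18 h array 5 and 6 without H2O 0 h array 5, ABX 18 h array 1 or ABX 18 h array 2.

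Of the 34 ligands 31 had a difference above 0 between 18 and 0 h in H2O tumours, with a median of 0.19 (0.012 over all genes, of which 46.2% were below 0). From 6 to 18 h 31 were again above 0 and Ccl2 alone was called, at 0.55 ± 0.16 (limma adjusted p = 0.0284), which is 2.94% of the ligands against 9.58% of all genes (3.12% higher). That call was lost without H2O 18 h array 1, 4 or 5 or H2O 6 h array 1, 3 or 4. Fitting the H2O groups at 18 and 6 h alone called 4, with Ccl7, Cxcl12 and Cxcl13 added. Between 0 and 6 h limma called none of the 34, against 222 genes (1.11%), and 3 ligands and 2113 genes had an unadjusted p under 0.05. Ccl2, at 0.37 ± 0.16, had the smallest adjusted p among the ligands there, 0.37.

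The difference between the ABX and H2O changes was tested directly as an interaction. No ligand passed, for the change from 0 to 18 h (21 genes, 0.105%) or from 0 to 6 h (0 genes, 0%), and 0 ligands had an unadjusted p under 0.05 in limma, against 1893 and 1964 genes. For Ccl2 the ABX change from 0 to 18 h minus the H2O change was -0.40 ± 0.23 (limma adjusted p = 0.63). A rise called in H2O tumours and not in ABX tumours is therefore not shown to differ between them. The averaged comparison and the 18 h comparison share arrays with the time comparisons, so their calls are not independent of each other.

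The CXCR3 ligands Cxcl9, Cxcl10 and Cxcl11 are induced by interferons and draw activated T cells and NK cells. None was called in any comparison, and their spread between tumours of one group was wide. Cxcl9 at 18 h measured 7.59, 11.28, 10.41, 8.62 and 9.76 in ABX tumours and 9.77, 10.54, 8.02, 11.49 and 9.88 in H2O tumours. At 6 h it measured 8.29, 8.88, 8.41, 7.69 and 9.57 in ABX tumours and 9.35, 9.99, 9.32, 9.44 and 9.88 in H2O tumours. At 0 h it measured 8.16, 8.46, 8.70, 10.01 and 8.62 in ABX tumours and 7.81, 8.86, 8.66, 7.81 and 9.27 in H2O tumours. In H2O tumours all values at 6 h lay above all at 0 h, as 4.93% of genes do in either direction in that comparison, but the difference of 1.11 ± 0.55 (SE) had an adjusted p of 0.48. The difference of ABX minus H2O tumours at 6 h was -1.03 ± 0.55 (adjusted p = 0.30), the lowest of the 34 ligands there. Cxcl10 had a difference between 18 and 0 h of 0.66 ± 0.41 in ABX tumours and 0.69 ± 0.41 in H2O tumours. Cxcl11 had 0.39 ± 0.13 in ABX tumours and 0.32 ± 0.13 in H2O tumours. Between 18 and 0 h in H2O tumours Cxcl9 was called without H2O 18 h array 3 (1.94 ± 0.53, limma adjusted p = 0.0152). It was also called there without ABX 18 h array 1 (adjusted p = 0.0482), and Cxcl11 without ABX 18 h array 2 (adjusted p = 0.0263).

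Within groups Cxcl9 and Cxcl10 moved together (Pearson r = 0.921, permutation p = 1e-05, adjusted 0.000115; Spearman rho = 0.864, p = 1e-05; n = 30 arrays; r = 0.920 without the 2 arrays farthest from the median), a value among 46 same-family pairs tested. Positive relations to the mean of 6 markers of NK and cytotoxic cells were found for 16 of the 34 ligands at an adjusted p under 0.05, with a median r of 0.403 over all 34. The share over all genes was not computed for this list either. Of the 6 markers, the NK receptors Ncr1, Klrb1c and Klrk1 were dim, with medians of 5.59, 5.74 and 5.19 against 7.52 over all genes. Against this list Cxcl10 had r = 0.906 (permutation p = 1e-05, adjusted 0.000227; rho = 0.763, p = 9e-05; 0.863 without 2 arrays). Cxcl9 had r = 0.836 (permutation p = 2e-05, adjusted 0.000227; rho = 0.705, p = 0.00019; 0.805 without 2 arrays). Ccl5, which is also made by T and NK cells, had r = 0.830 (permutation p = 2e-05, adjusted 0.000227; rho = 0.653, p = 0.00087; 0.766 without 2 arrays). These ligands were also related to the macrophage list, with r = 0.586 for Cxcl10, 0.479 for Cxcl9 and 0.650 for Ccl5. The arrays with the lowest Cxcl9 at 18 h were ABX array 1 and H2O array 3, whose marker means were -0.29 and -0.14, the lowest of their groups. The NK list ranged from -0.29 to 0.43 in ABX tumours at 18 h and from -0.14 to 0.47 in H2O tumours at 18 h.

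**Figure D4:**
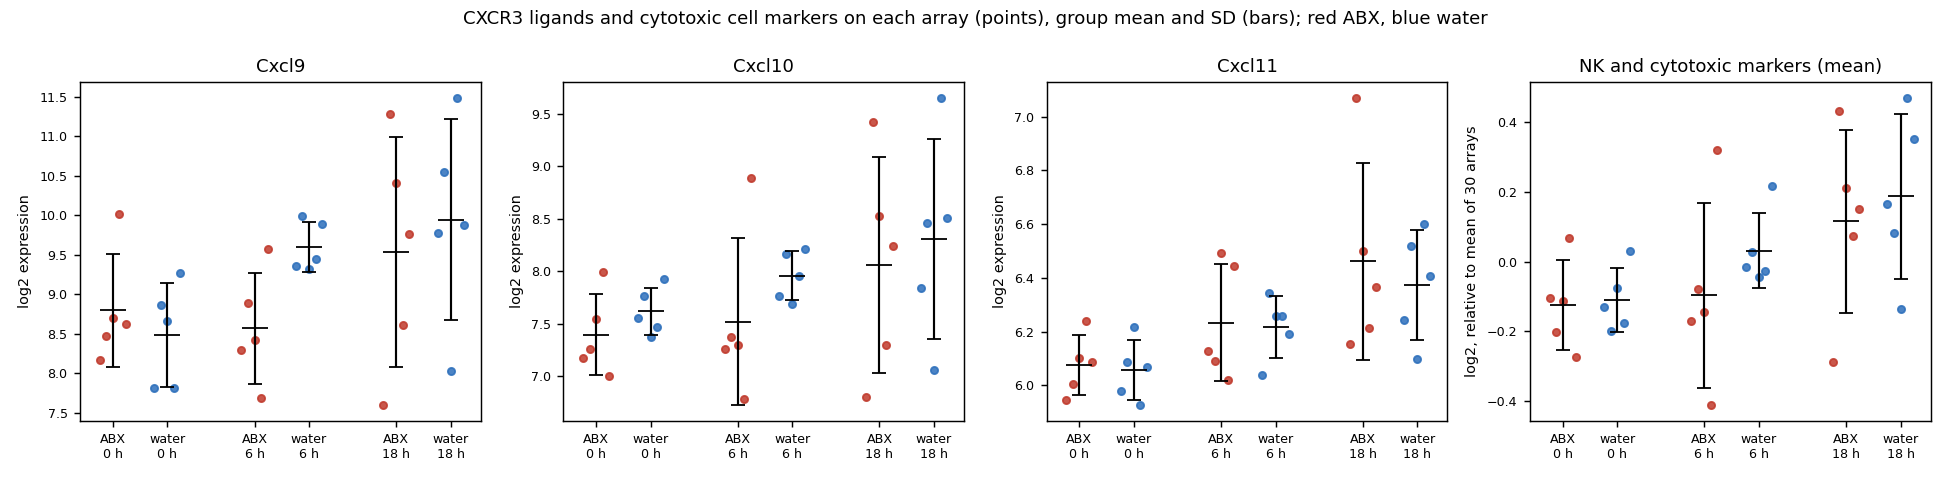
Cxcl9, Cxcl10 and Cxcl11 on each array (points, log2 expression) and the mean of 6 NK and cytotoxic cell markers (log2, relative to the mean of 30 arrays), by group, with group mean and SD (n = 5). The 18 h groups spread widely, from 7.59 to 11.28 in ABX tumours and from 8.02 to 11.49 in H2O tumours for Cxcl9.

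The promoter of Cxcl10 is shown because it held 2 of the motifs, NF-kB and interferon-stimulated. The Cxcl14 window also held 2, interferon-stimulated and gamma-activated, and is not shown. The Cxcl10 window lies at chr5:92348890-92349139 on the minus strand of GRCm38.p6, and capitals mark the interferon-stimulated element and then the NF-kB letters.
Cxcl10: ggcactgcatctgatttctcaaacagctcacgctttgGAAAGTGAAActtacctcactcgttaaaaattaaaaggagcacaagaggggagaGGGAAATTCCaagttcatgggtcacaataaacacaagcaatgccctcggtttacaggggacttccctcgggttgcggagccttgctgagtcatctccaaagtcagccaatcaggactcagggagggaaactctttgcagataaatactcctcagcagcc
The NF-kB letters occurred in the windows of 5 of 23 matched ligands (Ccl1, Cxcl1, Cxcl10, Cxcl2, Cxcl3), against 1.21% of 32851 RefSeq promoter windows of the same length. The interferon-stimulated letters occurred in 3 of 23 (Ccl19, Cxcl10, Cxcl14; 2.98% of all windows) and the gamma-activated letters in 2 of 23 (Ccl17, Cxcl14; 7.02%). None of the 5 called ligands with a window (Ccl12, Ccl8, Ccl9, Ccl6, Ccl22) held any of the 3. A match is a description of letters, not of a bound site.

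The neutrophil attractants that bind CXCR2 were not called in any comparison over all 30 arrays either. They are Cxcl1, Cxcl2, Cxcl3 and Cxcl5, with Cxcl15, a lung chemokine of the mouse. Cxcl2, made by activated macrophages, measured 7.42, 9.56, 9.27, 8.60 and 9.83 in ABX tumours at 18 h and 8.51, 8.64, 9.04, 8.73 and 10.09 in H2O tumours at 18 h. At 0 h it measured 9.05, 7.91, 7.97, 7.68 and 6.88 in ABX tumours and 8.17, 8.46, 8.40, 7.45 and 9.07 in H2O tumours, so the groups were wide and overlapped. Its difference between 18 and 0 h was 1.04 ± 0.41 (SE) in ABX tumours (limma adjusted p = 0.27) and 0.69 ± 0.41 in H2O tumours (adjusted p = 0.31). All 5 members had 18 h minus 0 h differences above 0 in both. In H2O tumours Cxcl1 was called for that change without H2O 0 h array 5 or H2O 18 h array 4 (limma adjusted p = 0.0458 and 0.0432). It was also called without ABX 18 h array 1, in ABX tumours (adjusted p = 0.0375) and in H2O tumours (adjusted p = 0.0483). Averaged ABX minus H2O differences ran from -0.29 for Cxcl2 to 0.04 for Cxcl15, and 4 of 5 were below 0. Cxcl2 and Cxcl3 moved together within groups (r = 0.824, permutation p = 2e-05, adjusted 0.000131; rho = 0.804, p = 2e-05; n = 30; 0.753 without 2 arrays). Their promoters and that of Cxcl1 are shown because each holds the NF-kB letters, here in a run that reads as a match on both strands (capitals), near the start. They lie on the plus strand of chromosome 5, at chr5:90890995-90891244 (Cxcl1), chr5:90903649-90903898 (Cxcl2) and chr5:90785851-90786100 (Cxcl3).
Cxcl1: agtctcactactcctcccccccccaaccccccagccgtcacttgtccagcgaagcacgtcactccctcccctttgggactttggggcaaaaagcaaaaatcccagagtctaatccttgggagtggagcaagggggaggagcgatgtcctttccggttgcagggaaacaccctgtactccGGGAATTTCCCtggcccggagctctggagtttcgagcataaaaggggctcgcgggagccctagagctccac
Cxcl2: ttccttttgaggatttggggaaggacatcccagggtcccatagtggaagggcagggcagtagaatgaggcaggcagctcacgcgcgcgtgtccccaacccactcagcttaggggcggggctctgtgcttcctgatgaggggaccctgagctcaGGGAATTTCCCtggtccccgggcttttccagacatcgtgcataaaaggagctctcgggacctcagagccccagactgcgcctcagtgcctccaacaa
Cxcl3: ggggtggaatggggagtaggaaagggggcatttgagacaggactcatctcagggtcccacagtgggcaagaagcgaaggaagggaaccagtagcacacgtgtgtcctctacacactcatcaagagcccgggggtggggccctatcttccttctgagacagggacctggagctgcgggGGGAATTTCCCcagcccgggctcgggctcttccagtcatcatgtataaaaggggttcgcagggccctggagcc
The overlapping matches on the opposite strands count as 1 window each.

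The homeostatic ligands are Cxcl12, which retains CXCR4-bearing cells near stroma and vessels, and Cxcl13, which draws B cells through CXCR5 and is made by some macrophages. Cxcl13 had the lowest averaged difference of all 34 ligands, -0.40 ± 0.16, without passing (limma adjusted p = 0.13). It measured 9.75, 9.92, 10.48, 10.39 and 10.18 in ABX tumours at 18 h and 10.24, 10.57, 10.90, 10.69 and 10.99 in H2O tumours at 18 h, and the groups overlapped. Cxcl12 differed by -0.18 ± 0.083 averaged (adjusted p = 0.23). Without the 3 arrays with high skin or muscle markers both were called lower in ABX tumours, Cxcl12 at -0.27 ± 0.070 (adjusted p = 0.0153) and Cxcl13 at -0.51 ± 0.16 (adjusted p = 0.0445). In H2O tumours Cxcl12 at 18 h lay wholly above 6 h, as 11.7% of genes do in either direction, with a difference of 0.28 ± 0.14 (adjusted p = 0.23).

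The remaining ligands showed small differences, and none was called. The eotaxins Ccl11, Ccl24 and Ccl26, which attract eosinophils through CCR3, had averaged differences of -0.12 ± 0.079, -0.06 ± 0.12 and 0.03 ± 0.047. Ccl19, the CCR7 ligand that guides dendritic and naive T cells, had -0.03 ± 0.040, and in ABX tumours its 18 h values (7.27 to 7.33) lay above those at 0 h (7.05 to 7.24), as 3.26% of genes do in either direction. Ligands of skin, gut and airway (Ccl20, Ccl25, Ccl28, Cxcl14, Cxcl17) ran from -0.05 to 0.05. The Ccl25 row not used had -0.095 ± 0.049, against -0.023 ± 0.030 for the row used. Ccl1 and Xcl1, products of activated T and NK cells, had averaged differences of -0.00089 ± 0.050 and 0.0026 ± 0.054, and Xcl1 had 18 h minus 0 h differences of 0.28 ± 0.094 in ABX tumours and 0.26 ± 0.094 in H2O tumours. The H2O change of Xcl1 was called without H2O 0 h array 5 or ABX 6 h array 2. It was also called without H2O 18 h array 2 or 3 or ABX 18 h array 2 (limma adjusted p from 0.0384 to 0.049). Across all ligands, the 46 pairs of one family had a median within-group r of 0.534, against 0.137 for pairs of different families. The ranges overlapped, from -0.291 to 0.921 within families and from -0.677 to 0.95 between them.

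Counts of called chemokine receptors were small. Among the 18 tested, 1 was called between ABX and H2O tumours at 18 h and 1 averaged, where 7.85% and 6.65% of all genes were called, and 2 between 18 and 0 h in H2O tumours, where 14.1% of all genes were called. Of these, Ccr10, a receptor of skin-homing lymphocytes, was lower in ABX tumours at 18 h (-0.26 ± 0.056, limma adjusted p = 0.00459) and averaged (-0.18 ± 0.033, adjusted p = 0.000971), and higher at 18 than at 6 h in H2O tumours (0.23 ± 0.056). Between 18 and 0 h in H2O tumours Cxcr6, the receptor for Cxcl16, was higher (0.28 ± 0.091) and Cxcr4, the receptor for Cxcl12, lower (-0.20 ± 0.060). Ccr2, the receptor of the monocyte attractants, had an averaged difference of -0.29 ± 0.14, and Ccr1 of -0.28 ± 0.12, neither of which passed. Among the 4 atypical receptors, Ackr4, which takes up CCR7 and CCR9 ligands, was lower in ABX tumours at 18 h (-0.41 ± 0.090) and averaged (-0.17 ± 0.052), and higher in H2O tumours at 18 than at 0 h (0.41 ± 0.090) and 6 h (0.36 ± 0.090). Ackr1, which binds inflammatory chemokines on venules and red cells, was higher in ABX tumours averaged (0.13 ± 0.026). It was lower at 18 than at 0 h in ABX tumours (-0.34 ± 0.045) and in H2O tumours (-0.23 ± 0.045), and lower at 6 than at 0 h in H2O tumours (-0.18 ± 0.045).

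Inducers of chemokines were measured beside them. Of 10 cytokines none was called between ABX and H2O tumours in any of these 4 comparisons. Between 18 and 0 h Il1b and Il6 were higher in ABX tumours, and Il1b, Il6 and Tnf (0.23 ± 0.064) in H2O tumours, 2 and 3 of the 10. Among all genes 1.22% were called in ABX tumours and 14.1% in H2O tumours (6.18% higher). Of 14 NF-kB response genes 12 were below 0 averaged, as were 47% of all genes. Nfkbie (-0.14 ± 0.041), Traf1 (-0.17 ± 0.049) and Icam1 were called lower in ABX tumours averaged, and Icam1 at 18 h. These are 3 and 1 of the 14, where 4.07% and 3.34% of all genes were called lower. Between 18 and 0 h Nfkbie was higher in ABX tumours (0.29 ± 0.072), and 5 of the 14 were called higher in H2O tumours, among them Nfkbie (0.37 ± 0.072) and Tnfaip2 (0.50 ± 0.13), where 6.18% of all genes were called higher. Of 14 interferon response genes all were below 0 in ABX minus H2O tumours averaged (median -0.20) and at 18 h (median -0.24), where 47% and 52.5% of all genes were below 0, and Bst2 was the one called in both. Between 18 and 0 h all 14 were above 0, with a median of 0.31 in ABX tumours, where Bst2 was called, and of 0.48 in H2O tumours, where Bst2, Cd274 (0.50 ± 0.13) and Gbp5 (1.08 ± 0.37) were called. Of all genes 44.1% in ABX tumours and 46.2% in H2O tumours were below 0 there. The calls are 1 and 3 of the 14, where 1.22% of all genes were called in ABX tumours and 6.18% called higher in H2O tumours.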

How the data were processed

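The arrays measured RNA of whole EL4 tumours. Per the labels' protocols, 300 ng of total RNA was labelled with biotin and hybridised to an Affymetrix mouse gene array. The authors deposited log2 values for 28853 probe rows, while the sources used here do not give the normalization behind them. Partek 6.6 is named, with no role, per the submitters' processing notes. Array medians ran from 7.25 to 7.37, and the values were not normalized again. The number of arrays limits the precision.

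Of the rows, 23353 were listed in the platform annotation used here, 21775 with 1 symbol and 1578 with several. The remaining 5500 rows were not listed and had no symbol. Genes with several rows (998) kept the row with the highest mean, which left 19938. One limma fit (limma 3.58.1, R 4.3.3) of 6 group means over 30 arrays (24 residual degrees of freedom) gave 12 comparisons, adjusted by Benjamini-Hochberg over all genes, with a threshold of 0.05. The code was checked on simulated data with independent normal noise, an equal spread in all groups and shifts at ABX 18 h only. That check does not cover the uneven spread or the correlations between genes of these data. Python 3.11.15 with numpy 2.4.6, pandas 2.3.3 and matplotlib 3.10.9 ran correlations (100000 permutations within groups), motif searches and plots. Ligands are named with values where called in a comparison, by receptor family otherwise. The members and the gene lists were chosen with earlier results of these data known. Alternatives were other scalings, filters, weights, subsets of groups and arrays left out.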

Additional observations from a re-analysis of the deposited data

Results flagged for a closer look

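Single arrays that lay far from the other 4 of their group (Dixon's test, critical value 0.71) numbered 13 among 204 groups of values for one ligand, against 10.2 by chance at 1 in 20. In ABX tumours at 6 h these were Ccl20 on array 3 (high, 7.03), Ccl5 on array 5 (high, 8.66) and Cxcl10 on array 5 (high, 8.88). In ABX tumours at 18 h they were Ccl4 on array 1 (low, 6.74), Cxcl5 on array 1 (low, 6.37) and Cxcl17 on array 3 (high, 7.20). In H2O tumours at 0 h Cx3cl1 was low on array 3 (6.52). In H2O tumours at 6 h Ccl28 was high on array 3 (5.85), and Ccl9 (10.93) and Cxcl3 (7.27) on array 5. In H2O tumours at 18 h Ccl12 was high on array 4 (7.82), and Ccl6 (11.37) and Cxcl3 (7.71) on array 5.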

How the results depend on the processing

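The 18 calls of a ligand in a comparison were recomputed under 9 other settings and with each array left out, giving 702 results, of which 561 stayed past the threshold, 141 did not and 0 reversed. The cause of each lost call was not tested. Between ABX and H2O tumours at 6 h the count of 1 became 0 with only the groups compared fitted, with array weights, with a change of 1.5-fold also required and without the 3 arrays with skin or muscle markers. At 18 h the count of 4 became 1 with 1.5-fold required. Ccl12 also lost its 18 h call with array medians subtracted, quantile normalization or only the groups compared fitted. Averaged, the count of 8 became 5 with array medians subtracted and 0 with 1.5-fold required, and Ccl22 also lost its call with array weights. From 0 to 18 h in H2O tumours 4 became 2 with 1.5-fold required. Ccl9 also lost that call with array medians subtracted, only the groups compared fitted, array weights or a trended robust prior. From 6 to 18 h in H2O tumours 1 became 2, with Ccl17 added, with array medians subtracted or quantile normalization. So it did with the dimmest 25% of genes left out, array weights or a trended robust prior. Fitting only the groups compared gave 4, and requiring 1.5-fold gave 0. From 6 to 18 h in ABX tumours 0 became 1 (Cxcl12) without the 3 arrays. Leaving out each array in turn gave 0 to 1 calls at 6 h, 1 to 4 at 18 h and 4 to 10 averaged between ABX and H2O tumours. It gave 0 to 3 from 0 to 18 h and 0 to 1 from 6 to 18 h in ABX tumours, against 2 to 6 and 0 to 2 in H2O tumours. No paired analysis was possible because the labels number arrays in one run and give no replicate number shared between groups.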
